A study of Bos taurus with 15 samples.

Results

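OST4 and ASNA1 are genes for proteins that act at the membrane of the endoplasmic reticulum (ER), and their 2 rows of the deposited count table were followed across all 15 libraries of bovine morulae. They are 2 of 31999 rows, and both were among the 16375 rows with enough counts to be tested. They were chosen by name because OST4 was higher and ASNA1 lower in androgenetic than in ICSI morulae, so the differences between those groups are descriptions here and carry no test. The deposited table gives each gene's counts without its sequence, and no promoter or protein sequence was used here.

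The morula is the stage at which the cleaving cells of the embryo form a compact cluster. The 3 groups had 5 libraries each: haploid androgenetic embryos, which carry a sperm genome without that of the oocyte, haploid parthenogenetic embryos, which carry an oocyte genome without that of a sperm, and diploid embryos from intracytoplasmic sperm injection (ICSI), in which a sperm is injected into the oocyte. The library titles begin with TII for androgenetic, CHX for parthenogenetic and ICSI for diploid embryos. All libraries were made from polyadenylated RNA of Bos taurus. The labels name no breed, bull, oocyte donor, sex, age in hours, batch or number of embryos per library, so replicates may share any of these. Ploidy, parental genome and the way the embryos were made go together in contrasts with ICSI morulae and cannot be told apart there. Both haploid groups have the same ploidy by their labels. Between them, parental genome and the way the embryos were made cannot be told apart. A lower level in a whole embryo may mean fewer cells with the transcript or less of it per cell, and these cannot be told apart either. Among 52 marker names for inner cell mass, trophectoderm, oocyte and cumulus cells, only SOX2 had a row under its symbol, so the cell makeup of the libraries could not be checked with these lists.

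The ER receives secreted and membrane proteins while or after they are made. Oligosaccharyltransferase sits beside the translocon and moves a preassembled sugar chain onto asparagine residues of the growing protein, and OST4 is its very small membrane subunit, which helps hold the complex together. Proteins anchored by a single segment at their tail are released from the ribosome before that segment can be recognized and reach the ER by another route. ASNA1, also called GET3 or TRC40, is the ATPase that binds the tail anchor in the cytosol and brings it to a receptor in the ER membrane, of which WRB (GET1) is a subunit.

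Total counts lay between 19.97 M and 28.98 M per library, and 13564 to 19950 rows had at least 1 count. Levels are in CPM, a library's counts brought to a common total with TMM factors that correct for unequal library makeup, and group means carry the SD of the 5 libraries. CPM is not divided by gene length, so the level of OST4 is not compared with that of ASNA1. Intervals on single libraries are exact 95% Poisson intervals of the count and cover counting error only.

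OST4 was abundant in every library. In ICSI morulae it stood at 434, 458, 388, 372 and 648 CPM in replicates 1 to 5. These were the most even values of the 3 groups, and replicate 5 was the highest. In parthenogenetic morulae it stood at 416, 596, 350.0, 510.0 and 1499.8 CPM in replicates 1, 2, 3, 5 and 6. Here 4 libraries lay within or near the ICSI range, and replicate 6 lay far above them. In androgenetic morulae it stood at 1389, 2526, 679, 2788 and 1601 CPM in replicates 1, 2, 4, 5 and 6. All 5 were above every ICSI library, but replicate 4 was only just above ICSI replicate 5.

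The group means of OST4 fell in the order androgenetic (1797 ± 862 CPM), parthenogenetic (674 ± 471) and ICSI (460.1 ± 111). In androgenetic against ICSI morulae the fitted log2 fold change was 1.97 ± 0.45 (SE), a 3.90-fold higher level. That contrast chose the gene. Of all tested rows, 2.82% were called in it at an adjusted p under 0.05. Androgenetic libraries were all above ICSI libraries in 3.05% of all tested rows, which is the background for this separation, and nothing is read from either share for a gene chosen this way. The counting error of these values was small: the lowest androgenetic count was 18045 (interval 669 to 689 CPM) and the highest ICSI value had an interval of 638 to 659 CPM. These intervals did not overlap. The levels of the groups did not overlap either with DESeq2 size factors, upper-quartile factors or total counts in place of TMM factors, where no counting intervals were computed.

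ASNA1 had few counts, from 5 to 462 per library. In ICSI morulae it stood at 7.46, 6.33, 12.2, 14.4 and 7.20 CPM in replicates 1 to 5. Replicates 3 and 4 were the high ones, and these were the replicates with the lowest OST4. In parthenogenetic morulae it stood at 10.3, 3.94, 11.5, 4.94 and 1.56 CPM in replicates 1, 2, 3, 5 and 6. Replicates 1 and 3 matched the ICSI range, 2 and 5 lay below it, and 6 lay within the androgenetic range. In androgenetic morulae it stood at 1.58, 0.677, 2.41, 1.25 and 0.271 CPM in replicates 1, 2, 4, 5 and 6. All were below every ICSI library, with replicate 4 the highest and replicate 6, at 5 counts, the lowest.

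The means of ASNA1 had the opposite order, with 1.24 ± 0.827 CPM for androgenetic, 6.45 ± 4.28 for parthenogenetic and 9.53 ± 3.58 for ICSI morulae. The fitted log2 fold change of androgenetic against ICSI was -2.94 ± 0.77 (SE), a 7.66-fold lower level. This contrast also chose the gene. All androgenetic libraries were below all ICSI libraries in 4.15% of tested rows. The highest androgenetic value had an interval of 1.85 to 3.07 CPM and the lowest ICSI value one of 5.41 to 7.36 CPM, so counting error did not bridge the gap. It did blur the androgenetic libraries among themselves: the 5 counts of replicate 6 allow 0.0880 to 0.632 CPM and the 11 counts of replicate 2 allow 0.338 to 1.21 CPM. The groups did not overlap under any of the 4 scalings.

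**Figure D1:**
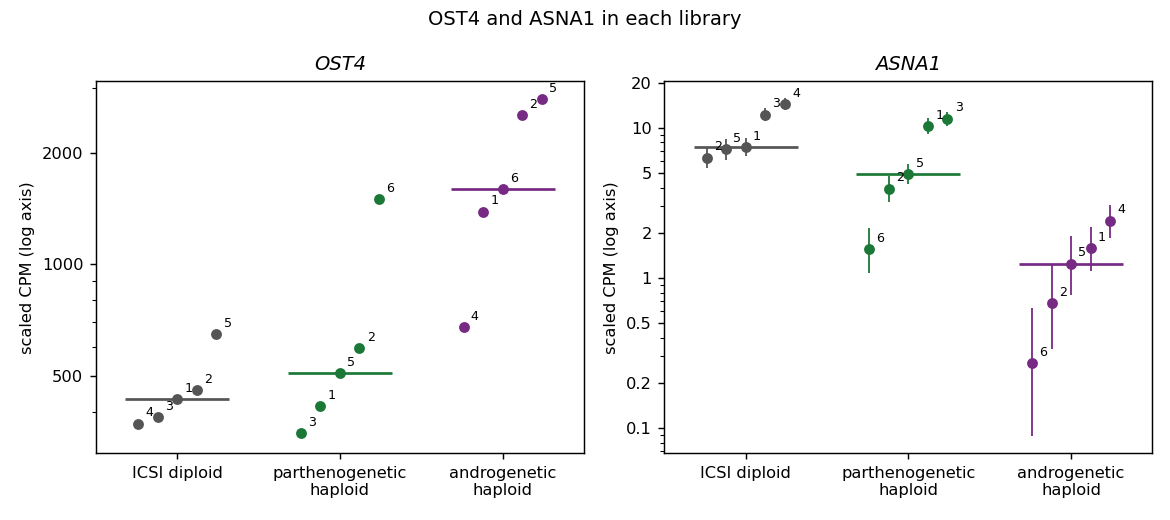
Scaled CPM of OST4 (left) and ASNA1 (right) in each library on log axes, with the replicate number beside each point, exact 95% Poisson intervals of the count as bars (hidden by the points for OST4), and the median of each group as a line. Androgenetic libraries lie above all ICSI libraries for OST4 and below them for ASNA1, and parthenogenetic replicate 6 lies among or beside the androgenetic libraries in both panels.

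Parthenogenetic morulae were not used to choose the genes, so their contrasts were tested, although each shares 5 libraries with the contrast that did. Neither gene passed between parthenogenetic and ICSI morulae. OST4 had a log2 fold change of 0.55 ± 0.44 (SE), with a 95% interval of -0.37 to 1.47 and an unadjusted p of 0.223 in edgeR's quasi-likelihood test. ASNA1 had -0.56 ± 0.71, with an interval of -2.06 to 0.93 and an unadjusted p of 0.440 in the same test, and the Benjamini-Hochberg adjusted p was 0.99997 for both. These intervals leave room for a difference of over 2-fold in either gene and do not show that the groups were alike. Of all rows, 0.0733% were called at an adjusted p under 0.05 in this comparison, and 0 of the 2 genes were, with 0 also at an unadjusted p under 0.05 in edgeR, DESeq2 and limma voom. The libraries overlapped: parthenogenetic OST4 was higher in 15 of the 25 pairs of 1 library from each group, and parthenogenetic ASNA1 was higher in 6 of 25. Without parthenogenetic replicate 6 the log2 fold changes were 0.023 for OST4 and -0.31 for ASNA1.

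Between the haploid groups neither gene passed over all genes in edgeR. The androgenetic libraries of this contrast are those that chose the genes, so its direction, size and p-values are not independent of the choice. Every call of the 2 genes between the haploid groups, here and below, carries this limit. OST4 was fitted 2.66-fold higher in androgenetic morulae, at a log2 fold change of 1.41 ± 0.44 (SE; 95% interval 0.48 to 2.35), with an adjusted p of 0.0951 in edgeR's quasi-likelihood test (unadjusted 0.00510). ASNA1 was 5.19-fold lower, at -2.37 ± 0.75 (interval -3.95 to -0.80), with an adjusted p of 0.0964 (unadjusted 0.00527). In this comparison 1.75% of all rows were called. Of the 2 genes edgeR called 0. DESeq2 called both (adjusted p = 0.0197 for OST4 and 0.00793 for ASNA1), where it called 10.8% of all rows. Limma voom called OST4 (adjusted p = 0.0469), where it called 4.29% of all rows. This contrast is also the test of whether the haploid groups differ from ICSI by unequal amounts. Androgenetic OST4 was higher in 23 of 25 pairs of libraries, and androgenetic ASNA1 was higher in 2 of 25.

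The call between the haploid groups turned on single libraries. Without parthenogenetic replicate 6 both genes passed in edgeR, OST4 at 1.93 ± 0.40 (adjusted p = 0.0152) and ASNA1 at -2.63 ± 0.73 (adjusted p = 0.0449). In that fit 5.28% of all rows were called, against 1.75% with all libraries. Without androgenetic replicate 4 OST4 passed at 1.62 ± 0.42 (adjusted p = 0.0405) and ASNA1 had -2.77, where 4.37% of all rows were called. The calls of these genes thus came with more calls over all rows. Without any 1 of the other 13 libraries neither gene passed, and over all 15 fits the adjusted p in edgeR lay between 0.0152 and 0.212 for OST4 and between 0.0449 and 0.219 for ASNA1. The log2 fold change kept its sign in all 15, between 1.19 and 1.93 for OST4 and between -2.77 and -2.02 for ASNA1.

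**Figure D2:**
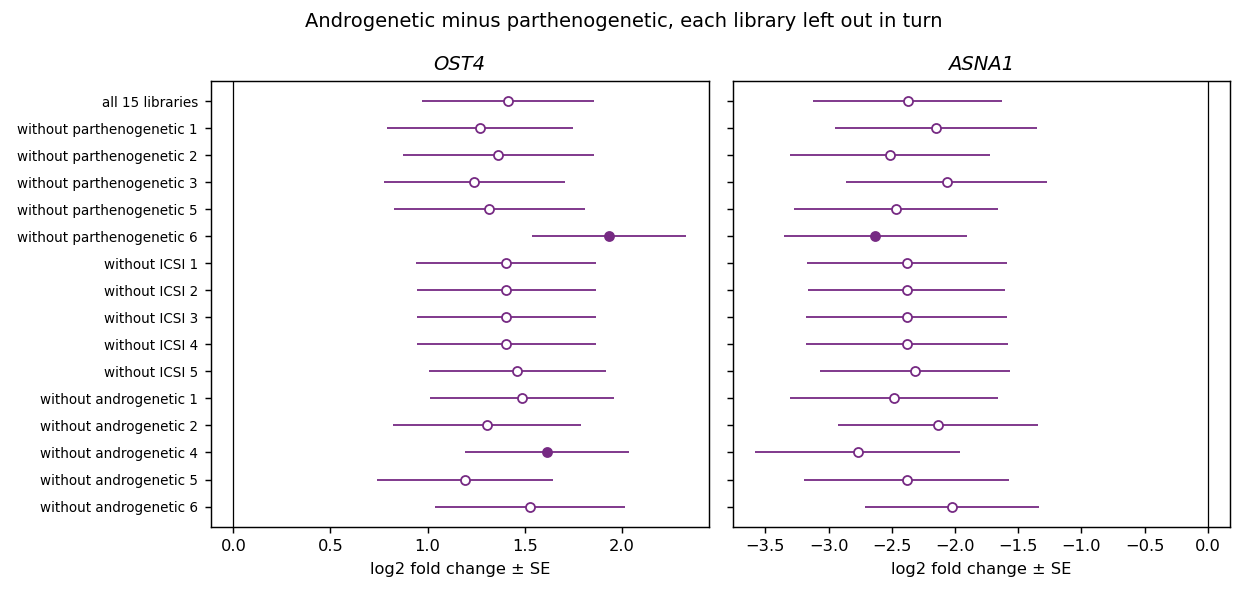
Log2 fold change of OST4 (left) and ASNA1 (right) between androgenetic and parthenogenetic morulae in edgeR, with its SE, for all 15 libraries and with each left out in turn. Filled points have an adjusted p under 0.05, which OST4 reached without parthenogenetic 6 or androgenetic 4 and ASNA1 without parthenogenetic 6. The androgenetic libraries chose the genes, so these p-values are not independent of the choice.

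Libraries with the most OST4 had the least ASNA1. The 5 libraries with the highest OST4 (androgenetic 5, 2, 6 and 1 and parthenogenetic 6) were also the 5 with the lowest ASNA1. Androgenetic replicate 4 came next in both orders. All of these but parthenogenetic 6 are androgenetic, so the shared order follows in large part from the choice of the genes. Expressed as the ratio of OST4 to ASNA1 with the mean of log2 ICSI values set to 1, ICSI libraries spanned 0.516 to 1.80. Parthenogenetic libraries stood at 0.808, 3.03, 0.609, 2.07 and 19.3 in replicates 1, 2, 3, 5 and 6, and so covered the ICSI range and went beyond it. Androgenetic libraries stood at 17.6, 74.7, 5.65, 44.8 and 118 in replicates 1, 2, 4, 5 and 6. That the androgenetic ratios exceed the ICSI ratios follows from the choice of the genes. Parthenogenetic replicate 6, whose ratio lies among the androgenetic ones, was not used in the choice. It is a single library, named after its values were seen. After group means were subtracted, Pearson's r of both genes in log2(CPM + 0.5) over the 15 libraries was -0.764. It is a description of libraries that share groups and makeup, and the relation was not tested.

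The same libraries also stood apart in their makeup. The 5 with the highest OST4 were those in which the 20 highest rows took the largest share of counts. All 5 were among the 6 libraries with fewest rows detected, and the sixth was ICSI replicate 5, at 15286 rows, with the highest OST4 of its group but an ASNA1 level near its group's median. Parthenogenetic replicate 6 had 16154 rows detected against 18111 to 18899 in the other 4 of its group, and 17.2% of its counts in the 20 highest rows against 10.7% to 11.3%. Androgenetic replicate 4 had 18633 rows detected, the most of its group, and the smallest such share, 12.8%. The part of library makeup in the levels of OST4 and ASNA1 was not tested. Leaving out the library with fewest rows detected in each group (androgenetic 6, parthenogenetic 6 and ICSI 5), both genes passed between the haploid groups, at 2.12 ± 0.41 for OST4 (edgeR adjusted p = 0.00762) and -2.26 ± 0.62 for ASNA1 (0.0304). In that fit 11.1% of all rows were called.

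**Figure D3:**
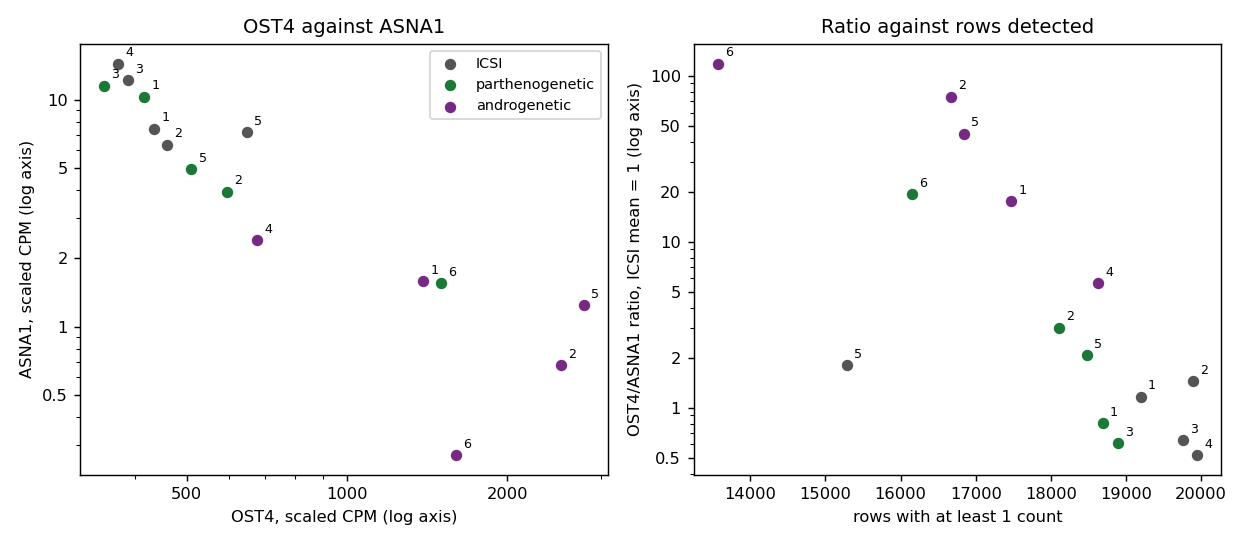
Left, scaled CPM of OST4 against ASNA1 in the 15 libraries on log axes, with the replicate number beside each point. Right, the ratio of OST4 to ASNA1 with the ICSI mean set to 1, on a log axis, against the number of rows with at least 1 count. Parthenogenetic replicate 6, at a ratio of 19.3 and 16154 rows, lies with the androgenetic libraries, and ICSI replicate 5, at 1.80 and 15286 rows, does not.

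Spread within groups also differed. Among ICSI libraries OST4 had an SD of log2(CPM + 0.5) of 0.32 where the median tested row had 0.68, and 10.8% of rows had a smaller SD. The ICSI and androgenetic libraries chose the gene, and the rows compared were not matched for abundance, so nothing is read from this place. Its SD was 0.82 in parthenogenetic and 0.81 in androgenetic libraries, where the median rows had 0.79 and 1.20. For ASNA1 the offset of 0.5 shrinks the spread of its lowest values, so its SDs are given without it: 0.52 in ICSI, 1.17 in parthenogenetic and 1.22 in androgenetic libraries on the log2 CPM scale. Its highest library was 2.28, 7.40 and 8.89 times its lowest in these groups.

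Reads at OST4 may not be its own alone. In RefSeq's ARS-UCD2.0 annotation OST4 overlaps AGBL5, a gene for a carboxypeptidase that acts on tubulin, and EMILIN1 is its other neighbour. ASNA1 (GET3 there) lies between BEST2 and TRIR and overlaps neither. None of these neighbours had a row under its symbol, and whether the counting used strand is not given in the sources used here. No row had nearly the same counts as either gene (within 2% or 3 counts in every library). The row most like OST4 of all 16374 others was ENSBTAG00000013403, singled out after its values were seen. Its correlation with OST4 in log2 CPM was 0.998, and its count was 0.601 to 0.765 times that of OST4 in each library. Whether it shares reads with OST4 was not tested.

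Other parts of the same pathways could be followed only in part, because most rows carry Ensembl identifiers that were not paired with symbols here. Of the 13 names listed for oligosaccharyltransferase subunits, including older symbols, OST4 was the only one with a row. No name of the lists for the ER membrane complex, the translocon and signal peptidase, the synthesis of the lipid-linked sugar chain, or glycan trimming had a row. Of the 13 names for tail-anchored insertion, ASNA1 and WRB had rows. Of the names for tail-anchored proteins, VAMP3 and BIK had rows, and of those for the unfolded protein response, CEBPG did.

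WRB, the receptor subunit to which ASNA1 docks, lay lower in androgenetic than in ICSI morulae without passing the test. It stood at 33.4, 34.8, 45.6, 38.8 and 59.2 CPM in ICSI replicates 1 to 5. In androgenetic replicates 1, 2, 4, 5 and 6 it stood at 20.7, 32.4, 27.5, 14.7 and 7.48 CPM. The groups did not overlap, though the highest androgenetic library was within counting error of the lowest ICSI library. All androgenetic libraries were below all ICSI libraries in 4.15% of all tested rows, and nothing is read from the separation. In parthenogenetic replicates 1, 2, 3, 5 and 6 it stood at 43.6, 52.0, 42.1, 27.1 and 2.63 CPM, so that replicate 6 had the lowest level of all 15. The log2 fold changes were -1.04 ± 0.57 (SE; edgeR adjusted p = 0.332) for androgenetic minus ICSI, -0.34 ± 0.56 (adjusted p = 0.99997) for parthenogenetic minus ICSI and -0.70 ± 0.57 (adjusted p = 0.554) between the haploid groups.

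VAMP3, a tail-anchored SNARE protein of recycling endosomes, did not pass in edgeR but was close to the threshold. It stood at 242, 180.3, 216, 339.6 and 269 CPM in ICSI replicates 1 to 5. Androgenetic replicates 1, 2, 4, 5 and 6 stood at 67.1, 65.6, 112, 112 and 138 CPM, all below the ICSI libraries. The same separation was present in 4.15% of all tested rows. Parthenogenetic replicates 1, 2, 3, 5 and 6 stood at 256, 107, 251, 258 and 94.4 CPM, of which 2 and 6 lay in the androgenetic range. Its log2 fold change from ICSI was -1.33 ± 0.37 (SE) in androgenetic morulae (edgeR adjusted p = 0.0564). DESeq2 called it (adjusted p = 0.0215, with 12.3% of all rows called), as did limma voom (adjusted p = 0.0410, with 5.35% called). It passed in edgeR without parthenogenetic replicate 6 (adjusted p = 0.0315, 5.31% called), without androgenetic replicate 6 (0.0452, 4.35%), with total counts only (0.0287, 3.55%) and without the 3 libraries with fewest rows detected (0.0253, 9.66%). Of the 15 fits with 1 library left out, only 2 called it, and the edgeR adjusted p reached 0.149. Nor did it pass with replicate number as a block (0.169) or without the count filter (0.102). Against parthenogenetic morulae it had -0.97 ± 0.37 (edgeR adjusted p = 0.163, and 0.0418 without those 3 libraries, where 11.1% of all rows were called). Parthenogenetic minus ICSI had -0.37 ± 0.37 (edgeR adjusted p = 0.99997).

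**Figure D4:**
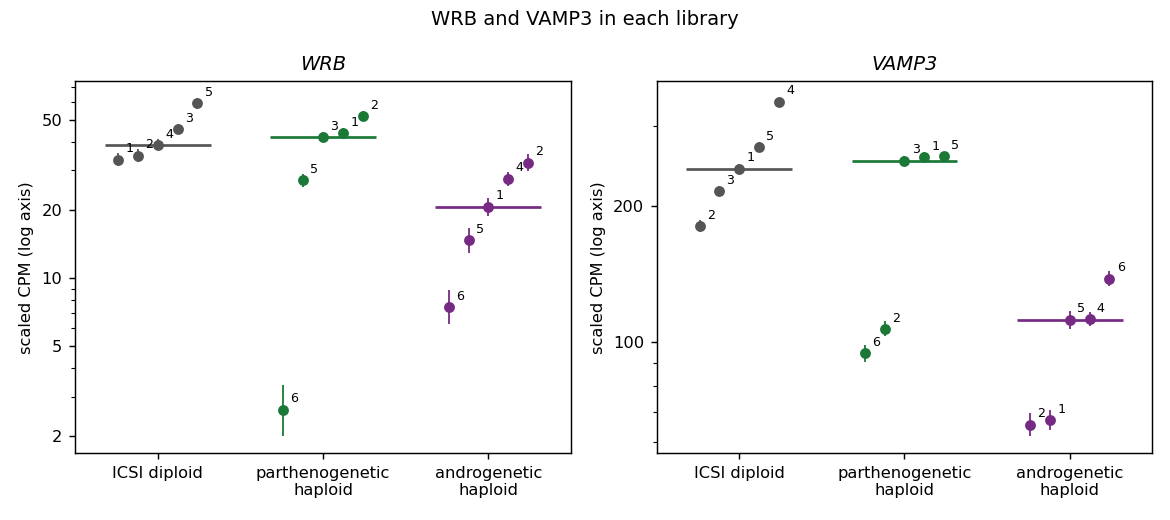
Scaled CPM of WRB (left) and VAMP3 (right) in each library on log axes, with the replicate number, exact 95% Poisson intervals of the count as bars and the median of each group as a line. All androgenetic libraries lie below all ICSI libraries in both panels, as in 4.15% of all tested rows. Parthenogenetic replicate 6 has the lowest WRB level, 2.63 CPM.

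The remaining pathway rows, CEBPG and BIK, did not pass in edgeR, and DESeq2 called CEBPG between the haploid groups. CEBPG, a partner of ATF4 in stress transcription, had a mean of 36.2 ± 26.3 CPM in androgenetic morulae, 13.4 ± 4.16 in parthenogenetic morulae and 22.5 ± 8.80 in ICSI morulae. It had a log2 fold change of 1.44 ± 0.50 between the haploid groups (edgeR adjusted p = 0.129, DESeq2 0.0201). DESeq2 called 10.8% of all rows there. From ICSI, CEBPG had 0.68 ± 0.49 in androgenetic morulae (edgeR adjusted p = 0.477). Its highest value, 80.6 CPM, was in androgenetic replicate 6, the library with fewest rows detected. Without that library CEBPG had 0.99 between the haploid groups and 0.24 from ICSI in edgeR. BIK, a tail-anchored promoter of apoptosis, was too uneven to compare, with 0 to 310 counts in androgenetic libraries and 0 to 77 in parthenogenetic ones. Its edgeR adjusted p was 0.794 for androgenetic minus ICSI and 0.571 between the haploid groups.

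Likeness to each gene was measured as Pearson's r of log2(CPM + 0.5) over the 15 libraries, among 291 rows with a symbol and a mean of at least 5 CPM. The libraries share groups and makeup, so r ranks rows and carries no test. Most like OST4 were TNIK (0.938), a kinase known in WNT signalling, the histone gene HIST2H2AC (0.937), ERMAP (0.934), a membrane protein of the immunoglobulin superfamily, and TMEM269 (0.933), a predicted membrane protein. HIST2H2AC has near-identical copies, so its counts are uncertain as those of 1 gene. After group means were subtracted, HIST2H2AC (0.939), SMIM26 (0.925) and TMEM269 (0.918) were most like it. SMIM26, a small membrane protein, had means of 435 ± 217 CPM for androgenetic, 262 ± 293 for parthenogenetic and 131 ± 56.4 for ICSI morulae. Parthenogenetic replicate 6, at 784 CPM, raised the mean of its group. The medians were 518, 137 and 113 CPM in the same order.

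Most like ASNA1 were the tRNA synthetase genes TARS (0.918) and KARS (0.871), then SELENOW (0.842), a small selenoprotein, and FBXL7 (0.822), an F-box protein of a ubiquitin ligase. After group means were subtracted, HSBP1L1 (0.789), TARS (0.787) and SELENOW (0.752) came first. HSBP1L1, related to a heat shock factor binding protein, had group means of 87.2 ± 49.5 CPM (androgenetic), 88.0 ± 40.5 (parthenogenetic) and 89.0 ± 9.96 (ICSI), which lay close together. Its r pools the 3 groups. Parthenogenetic replicate 6 was the lowest of its group in both genes (HSBP1L1 16.3 and ASNA1 1.56 CPM). In ICSI replicate 5, however, HSBP1L1 was the highest of its group (102 CPM) and ASNA1 was not (7.20 CPM). High values of r were not limited to the named rows. Of 16374 other tested rows, 297 (1.81%) had an r above 0.9 with OST4 and 94 one under -0.9. For ASNA1 the numbers were 64 (0.391%) and 66.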

How the data were processed

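The deposited table holds raw counts per row and library that the authors did not normalize; the submitters' processing notes name Trim Galore, cutadapt, STAR and featureCounts without versions or settings. Genome build and annotation are not given in the sources used here. Per the labels' protocols, a SMART-Seq HT kit and a Nextera XT kit were used. Groups come from the labels and replicate numbers from the titles. Of 31999 rows, 27607 have Ensembl identifiers, 3614 LOC numbers and 778 symbols. RefSeq's ARS-UCD2.0 table served for names and neighbours only.

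Counts of all 15 libraries were fitted with edgeR 4.0.16 in R 4.3.3: filterByExpr, TMM factors, 1 coefficient per group, quasi-likelihood tests and Benjamini-Hochberg adjustment over 16375 rows, called under 0.05. The SE is the log2 fold change divided by the square root of F. Alternatives included DESeq2 1.42.0 and limma 3.58.1 (voom). Nothing says that replicates were separate cultures or animals, so the p-values speak to the variation among these libraries, which may be technical.

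The members, the 12 gene lists and the naming rule (both genes, list members with a row, and the most alike symbol rows by r) were chosen with earlier results of these data known. No replicate pairing is given in the labels.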

Additional observations from a re-analysis of the deposited data

Results flagged for a closer look

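In each group of 5, the highest and lowest library were compared with the others by Dixon's ratio. This was done for the 7 list genes and 3 library measures, 30 groups in all, of which 6 stood out. The nominal rate of about 1 in 20 holds for normally distributed values. Genes were compared in CPM without logs, and their distribution was not checked, so the number of marks is not set against that rate. Marks on the log2 scale were not tested. The marks are not separate checks, because parthenogenetic replicate 6 carries more than 1 of them. OST4 in parthenogenetic replicate 6, at 1499.8 CPM, was far above the other 4 of its group. The same library had the fewest rows detected of its group, 16154, and the largest share of counts in the 20 highest rows, 17.2%. ICSI replicate 5 had 15286 rows detected, far below the other ICSI libraries. BIK was far above its group in androgenetic replicate 4, at 11.7 CPM, and in parthenogenetic replicate 2, at 2.97 CPM.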

How the results depend on the processing

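OST4 was higher and ASNA1 lower in androgenetic than in ICSI morulae under all 9 alternatives and without each of the 15 libraries. OST4 lay between 1.39 (total counts only, where the median of all rows moved from -0.0074 to -0.54) and 2.28, and ASNA1 between -3.36 and -2.64. Without each library in turn these were 1.75 to 2.18 and -3.33 to -2.60. In parthenogenetic minus ICSI neither gene passed under any of them, at 0.023 to 0.72 and -0.88 to -0.31 without each library. Between the haploid groups, calls were gained with DESeq2 (1.54 for OST4, -2.25 for ASNA1), with limma voom (1.46 for OST4) and without the 3 libraries with fewest rows detected (2.12 and -2.26). Neither gene passed under the other alternatives. In a fit of the haploid groups alone, OST4 had 1.52 (edgeR adjusted p = 0.225) and ASNA1 had -2.27 (0.312). Leaving out each library, OST4 lay between 1.19 and 1.93 and ASNA1 between -2.77 and -2.02. Leaving out those 3 libraries and using total counts only were chosen after seeing the data. The cause was not tested.

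The number of rows called also depended on the settings. For androgenetic minus ICSI (461 rows) there were 1987 with DESeq2, 876 with limma voom and 1630 without those 3 libraries. Leaving out each library gave from 0 (ICSI 1, 3 or 4, androgenetic 1 or 2) to 1077 (androgenetic 4). For parthenogenetic minus ICSI (12 rows) there were 39 with DESeq2 and 6 without the 3 libraries, and 3 to 14 with each left out. Between the haploid groups (287 rows) there were 1678, 703 and 1874, 27 in a fit of those groups alone, and 14 (without parthenogenetic 1) to 903 (without parthenogenetic 6) with each left out. With DESeq2 size factors the higher share of calls went from 62.5% to 72.8% for androgenetic minus ICSI, and with total counts only to 21.8%; between the haploid groups it went from 52.3% to 35.1% with total counts only.

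The replicate number may not pair libraries: deviations of same-numbered libraries correlated above 0.1 in 2 of 12 pairs (-0.074 to 0.11). With a replicate block, rows called were 0, 3 and 88 in the 3 comparisons, and neither gene passed in the comparisons tested.

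Values that changed sign were WRB in parthenogenetic minus ICSI (0.094 without the 3 libraries) and BIK, which had 0.16 there. For androgenetic minus ICSI, BIK had -0.86 with limma voom and -0.35 with the block, and -1.47 to 1.77 with each library left out; between the haploid groups it had -0.53 to 3.70. The r values of likeness stayed within 0.1 under the other scalings. ASNA1's counts limit its precision in androgenetic libraries.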
